A study of Mus musculus with 4 samples.

Results

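The detoxifying transferase genes followed here were measured in hematopoietic stem and progenitor cells (HSPCs) of young and old mice. They are Gstm1, Gstm2, Gstm4, Gstm5, Gstm7, Mgst1 and Sult1a1, and were chosen by symbol, from enzymes of glutathione and sulfate conjugation, after age differences of these same data were known. All 7 were present among the 28692 genes listed in the files, and all 7 passed the filter on low counts. The cells were Lin-Sca1+cKit+ Flt3- cells sorted from the bone marrow of male C57BL/6-CD45.2 mice and captured with the 10x Chromium 3′ chemistry. There were 2 young pools (2 to 3 months, 2 mice in pool A and 3 in pool B) and 2 old pools (17 to 18 months, 3 mice in pool A and 2 in pool B). The letter stands for the facility that captured and sequenced the pool, and no treatment or allele separated the groups. Mice were not told apart within a pool, so the replicate was the pool and its spread was that between pools.

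Glutathione transferases join the tripeptide glutathione to electrophilic compounds, which makes them more soluble and ready for export. The Gstm genes encode the cytosolic mu class, which works as dimers. Mgst1 encodes a microsomal enzyme of another fold that sits in the membranes of the endoplasmic reticulum and mitochondria and also reduces lipid peroxides. Sult1a1 encodes a cytosolic phenol sulfotransferase, which moves a sulfonate group from the donor PAPS to phenols and related compounds. The antioxidant response element, read by NRF2 with a small Maf partner, is the best known control sequence of this group of genes.

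The 5 Gstm members lie in one cluster on chromosome 3. In GENCODE M21 on GRCm38, the build used by the authors, the cluster runs in the order Gstm5, Gstm7, Gstm6, Gstm3, Gstm2, Gstm1, Gstm4 over 149074 bases. Gstm5 (ENSMUSG00000004032, chr3:107895821-107898686) is on the plus strand. The other mu-class genes are on the minus strand: Gstm7 (ENSMUSG00000004035, chr3:107926334-107931817), Gstm2 (ENSMUSG00000040562, chr3:107981702-107986453), Gstm1 (ENSMUSG00000058135, chr3:108012255-108017973) and Gstm4 (ENSMUSG00000027890, chr3:108040408-108044894). Mgst1 (ENSMUSG00000008540, chr6:138140316-138156755) is on the plus strand. Sult1a1 (ENSMUSG00000030711, chr7:126672865-126676432) is on the minus strand, with its 3′ end overlapping that of Sgf29 on the other strand.

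The 100 bases just upstream of the outermost annotated start are shown for 4 genes. Gstm1, Gstm2 and Gstm5 share a cluster but differed in age difference and cell class, and Sult1a1 is the sulfotransferase. The sequences are from RefSeq (GRCm38.p6), are written 5′ to 3′ on the strand of the gene, and carry in capitals any match to the antioxidant response element core TGACNNNGC, the AP-1 site TGACTCA, the TATA box letters TATAAA or the GATA letters AGATAA on either strand. The windows are chr3:108017974-108018073 for Gstm1, chr3:107986454-107986553 for Gstm2, chr3:107895721-107895820 for Gstm5 and chr7:126676433-126676532 for Sult1a1.
Gstm1: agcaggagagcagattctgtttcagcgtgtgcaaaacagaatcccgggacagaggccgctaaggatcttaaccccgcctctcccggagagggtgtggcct
Gstm2: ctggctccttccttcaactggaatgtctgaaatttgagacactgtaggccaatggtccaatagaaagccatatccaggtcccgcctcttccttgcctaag
Gstm5: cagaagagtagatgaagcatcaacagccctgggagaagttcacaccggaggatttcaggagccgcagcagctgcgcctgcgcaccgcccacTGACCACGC
Sult1a1: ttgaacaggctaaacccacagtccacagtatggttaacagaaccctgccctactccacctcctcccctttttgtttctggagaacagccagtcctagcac
Only the Gstm5 window among these 4 held a match, a response element core that ends at the base before the start. Over the longer RefSeq windows of 250 bases before to 50 after each start, the 7 members had 11 entries and Gstm3 and Gstm6 brought the total to 15. The core was in 3 of the 15 (Gstm5, Gstm7 and Mgst1), against 12.4% of all 32851 windows. TGACTCA was in 1 (Gstm5) against 5.2%, TATAAA in 3 (Gstm1, Gstm5 and Gstm7) against 13.6%, and AGATAA in 1 (Gstm7) against 11.2%. The TGACTCA and core motifs can overlap. A match is a run of letters and not a measured binding site.

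The mu-class genes are close relatives, so the counting of their reads was examined. Between their longest coding sequences, with gaps counted as differences, identity ran from 63.9% (Gstm1 and Gstm5) to 85.3% (Gstm2 and Gstm7). Gstm1 and Gstm2 were 76.9% identical by this measure. The longest coding sequence of Gstm1 has 735 bases against 657 for Gstm2, and its extra length lowers the values of each Gstm1 pair. The values therefore do not rank the Gstm1 pairs against the others. These libraries are read at the 3′ ends of transcripts. Of the 50-base words in the last 500 bases of their coding transcripts, none of those of Gstm4, Gstm5, Gstm7 or Mgst1 occurred in a transcript of another gene. For Gstm2, 10.1% did, in the predicted genes Gm12499 and Gm6665, and for Sult1a1 7.69% did, in Gm6939. For Gstm1, 23.0% did, in Gm8834, Gstm2-ps1 and Gstm3. No word was common to Gstm1 and Gstm2, and the counts of Gstm1, Gstm2 and Sult1a1 carry an uncertainty for the shared words.

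After the study's filter on UMI counts, 14915 of 15566 barcodes were kept, namely 5189 (A) and 2244 (B) young cells and 3328 (A) and 4154 (B) old cells. The kept cells held 16399999 to 36446168 UMIs per pool, and the median UMIs per cell ran from 5674 to 6719. Pools shared 10 to 29 barcodes with each other, at most 0.813% of the smaller pool. By the study's design text, young A and old B were sequenced to fewer reads per cell than young B and old A. Stem cell markers (Hlf, Mecom, Procr and 5 others) were detected in every pool, and their summed level was 692 to 756 CPM (counts scaled to a common total, as below) in the young pools and 1037 to 1261 in the old ones. Hlf and Mecom were higher in old A than in young A, but not in old B than in young B. There Hlf stood at 203.3 (young) and 195.6 (old) and Mecom at 52.4 and 51.8 CPM. The other markers of the list were higher in both old pools, with Mllt3 at 120.1 (young B) and 321.3 CPM (old B). Markers of B and plasma cells, of which all 6 were seen, summed to 193 to 209 CPM in the young pools and 409 to 1113 in the old ones. T and NK cell markers (6 of 6 seen) summed to 203 to 234 and 82.9 to 98.2 CPM. Almost all of that sum was Nkg7: 200.9 (young A), 232.7 (young B), 96.1 (old A) and 79.9 (old B). The highest value of any other marker in that list was 2.40 CPM (Trac, old B). Among them Trac was higher and Cd4 lower in both old pools, so the sum is not read as a change in T or NK cells. Mitotic markers (8 of 8 seen) summed to 480 to 576 and 269 to 370 CPM. Mast cell markers (8 of 8 seen) summed to 2078 to 2199 and 641 to 971, and mature granulocyte markers to 4.97 to 5.73 and 4.30 to 8.13. Most of the mast cell sum was Mcpt8 and Prss34, at 770.6 and 1083.5 CPM in young A and 352.6 and 456.5 CPM in old A. Cpa3 (149.5 and 113.6 CPM in young against 104.2 and 41.1 CPM in old pools), Ms4a2, Gzmb and Hdc were also lower in both old pools. Cma1 went the other way, at 0.0823 and 0.061 CPM in the young and 2.16 and 2.01 CPM in the old pools. Fcer1a was lower in old B only. Most markers of the list were thus lower in old pools but not all, and a change in mast cell number was not tested. Mature erythroid markers summed to 902 CPM in young pool B and to 83.6 to 302 CPM in the other pools. The part of these shifts in the pool values was not tested, and values within stem cell-gated cells are therefore given beside them.

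Levels are CPM, the UMIs of a gene on a per-million scale of all UMIs in its pool. Each molecule is tagged once at its 3′ end. Age differences are read between pools for one gene, and where genes are ranked by level the ranking is of UMIs as counted. Of all 13555 genes fitted by the quasi-likelihood method of edgeR, with platform as a block and a threshold of 0.05 on the adjusted p,, 1.6% were higher and 0.428% were lower in old pools. Of the 7 members, 2 passed in the higher direction (Gstm2 and Sult1a1) and 1 in the lower (Mgst1). The members were selected on this same contrast, so nothing is read from that count and their age values are a description.

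Gstm2 was rare in young mice, with 2.28 and 4.39 CPM (83 and 72 UMIs) in their pools A and B. Old pools A and B held 47.6 and 66.5 CPM (989 and 2212 UMIs). The means were 3.33 ± 1.49 and 57.0 ± 13.4 CPM (SD, n = 2 pools each), a ratio of 17.1. The fitted log2 difference of 4.10 ranked 67 by size among the 13555 genes.

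Sult1a1 showed the other large gain. In the young pools it stood at 27.1 and 37.3 CPM, and in the old ones at 248.8 and 319.4 CPM. The means were 32.2 ± 7.18 and 284.1 ± 49.9 CPM (SD, n = 2), a ratio of 8.83 and a fitted log2 difference of 3.10. Both old pools were several times above both young pools, on either platform.

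Mgst1, the microsomal enzyme, moved the other way. In young pools its level was 49.7 and 47.3 CPM, against 17.9 and 14.4 CPM in old ones. The means were 48.5 ± 1.70 and 16.2 ± 2.53 CPM (SD, n = 2), and the fitted log2 difference was -1.65.

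The other Gstm members were higher in old pools by smaller steps, and none passed the adjusted threshold. Gstm1 stood at 191.9 and 256.2 (young) against 375.0 and 380.7 CPM (old), a ratio of means of 1.69. Gstm7 stood at 13.0 and 15.3 against 23.6 and 24.0 CPM, a ratio of 1.68. Gstm5 stood at 76.9 and 79.8 against 92.4 and 107.8 CPM, and Gstm4 at 17.1 and 13.7 against 19.7 and 20.8 CPM, with ratios of 1.28 and 1.31. For all 7 members, which were selected on this contrast, the difference had the same direction on both platforms. Over all 13555 genes, the same held for 8185. Summed over the members, the level was 378.1 and 453.9 against 825.0 and 933.5 CPM.

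**Figure D1:**
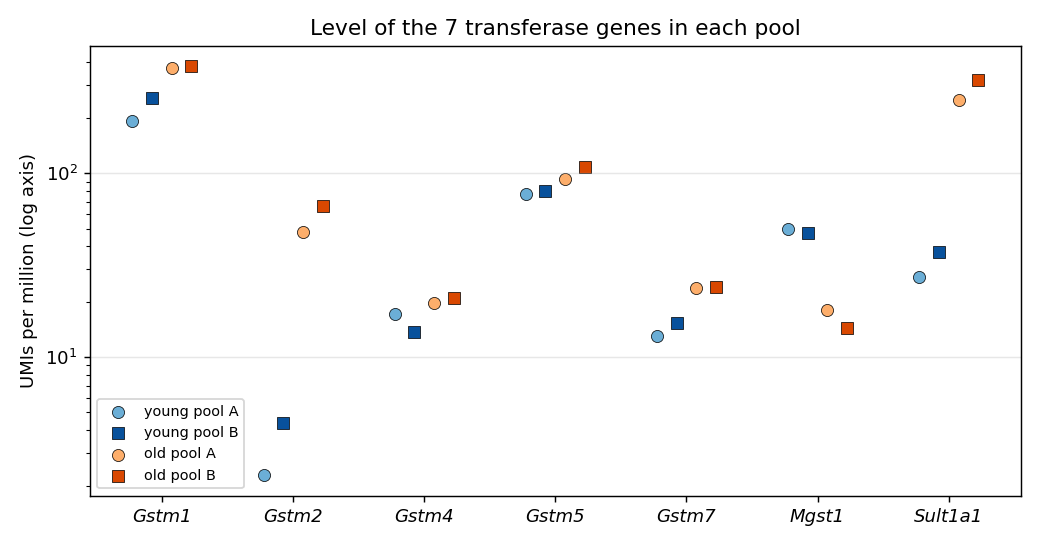
Level of each member in CPM (log axis) in the 4 pools, 1 point per pool. Gstm2 (2.28 and 4.39 against 47.6 and 66.5) and Sult1a1 (27.1 and 37.3 against 248.8 and 319.4) stand far higher in the old pools and Mgst1 lower, while the points of Gstm4 and Gstm5 lie close together.

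Age differences were then read along the chromosomes. Within the Gstm cluster the difference on the log2(CPM + 1) scale was 3.89 and 3.65 (platforms A and B) for Gstm2, 1.67 and 1.82 for Gstm6, 0.96 and 0.57 for Gstm1, 0.82 and 0.62 for Gstm7, 0.19 and 0.57 for Gstm4, and 0.26 and 0.43 for Gstm5. Gstm3, between Gstm6 and Gstm2, had 2 to 12 UMIs per pool. The differences thus varied from gene to gene inside the cluster, with no gradient from one end to the other. Gstm2 lies 25801 bases from Gstm1, which had 4201 to 12671 UMIs per pool and a far smaller difference.

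Sult1a1 has a neighbor with a larger age difference. Nupr1, a chromatin-associated stress regulator, lies 42004 bases away and stood at 12.8 and 20.7 (young) against 371.5 and 549.5 CPM (old; fitted log2 difference 4.74, edgeR adjusted p = 0.00563). The 4 other protein-coding genes within 60 kb of Sult1a1 (Sgf29, Slx1b, Bola2 and Coro1a) did not pass the threshold. Sgf29, which overlaps Sult1a1 on the other strand and lies between it and Nupr1, stood at 60.9 and 73.8 against 81.0 and 89.0 CPM (adjusted p = 0.483).

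**Figure D2:**
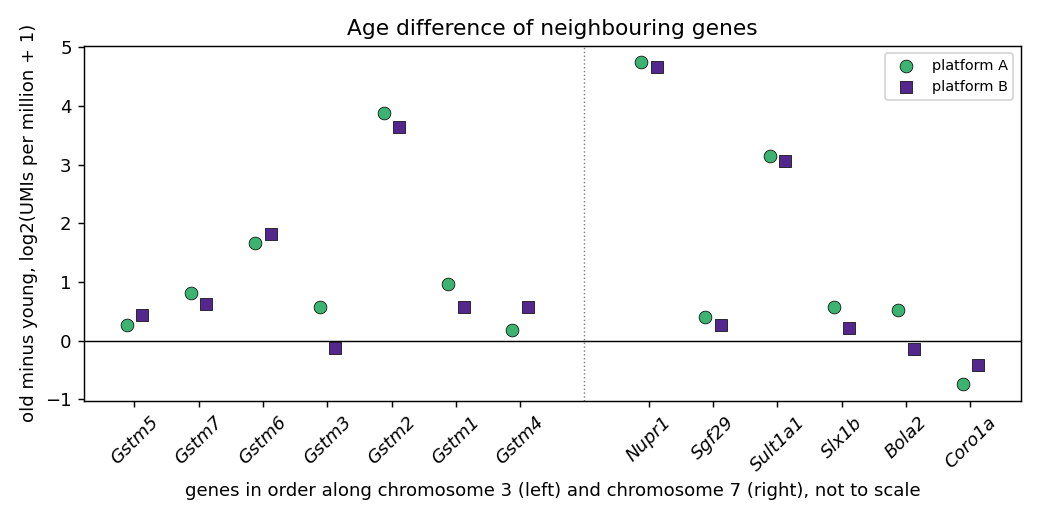
Old minus young difference in log2(CPM + 1), 1 point per platform, for the Gstm cluster on chromosome 3 and the neighbors of Sult1a1 on chromosome 7 in gene order. Gstm2 (3.89 and 3.65) stands out from the genes on either side of it, and Sult1a1 and Nupr1 stand out with Sgf29 between them at 0.41 and 0.27.

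To compare the share of cells with a transcript at equal depth, each cell was thinned to 3000 UMIs, which kept 14685 cells. Exact 95% binomial intervals cover counting error only. Sult1a1 was seen in 7.82% (7.11 to 8.59) and 9.98% (8.76 to 11.3) of the young cells (pools A and B), and in 44.2% (42.5 to 45.9) and 50.5% (49.0 to 52.1) of old cells. Gstm2 was seen in 0.655% (0.454 to 0.914) and 1.14% (0.739 to 1.68) of young cells and in 12.8% (11.6 to 14.0) and 17.2% (16.1 to 18.4) of old cells. Mgst1 was seen in 14.99% (14.0 to 16.0) and 14.9% (13.4 to 16.4) of young cells and in 4.85% (4.13 to 5.66) and 4.46% (3.85 to 5.13) of old cells. For these 3 genes the intervals of the young and the old pools did not meet. The genes were selected on this contrast and the intervals leave out the spread between pools, so nothing is read from that.

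Gstm1 was the member seen in most cells, in 43.3% and 52.1% of young cells and in 63.3% and 64.2% of old cells. Shares ran from 19.1% to 27.4% for Gstm5, from 4.18% to 6.99% for Gstm7 and from 4.38% to 6.14% for Gstm4. Without thinning, the shares of young A, young B, old A and old B were 13.6%, 16.6%, 60.6% and 70.7% for Sult1a1, 1.503%, 2.55%, 22.8% and 36.7% for Gstm2, and 27.2%, 26.8%, 9.64% and 9.73% for Mgst1. The order of the age groups was the same with and without thinning. In cells with a Sult1a1 UMI, the mean at 3000 UMIs was 1.26 and 1.38 UMIs in young pools and 1.81 and 1.96 in old pools, so both the share and the count per positive cell were higher. A higher mean level alone can raise both, so they are not read as separate changes. For Gstm2 the mean per positive cell was between 1 and 1.16 in every pool.

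**Figure D3:**
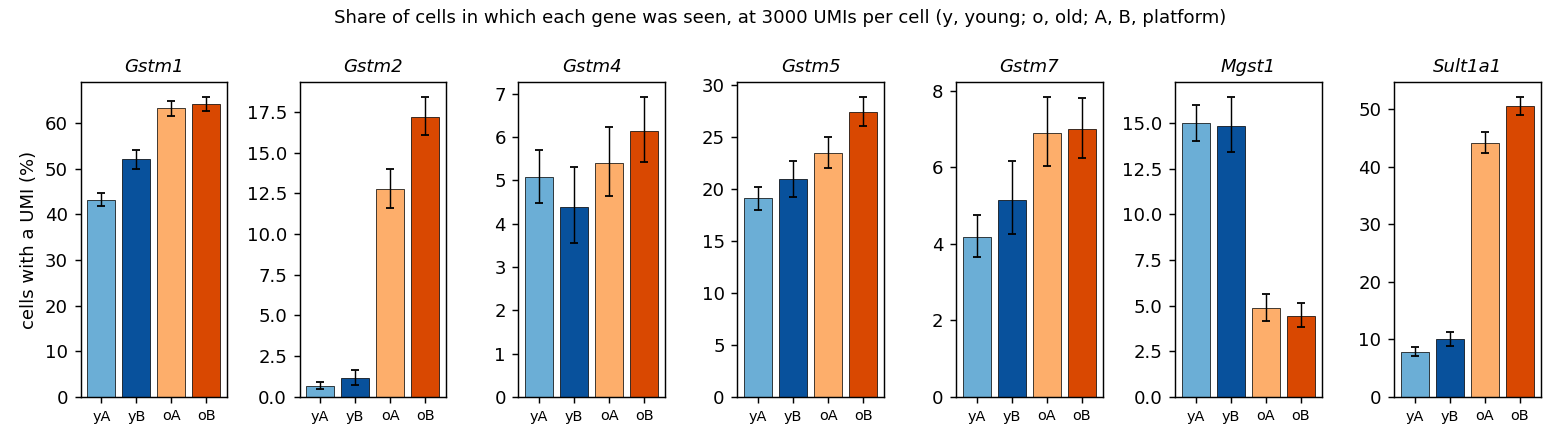
Percent of cells with at least 1 UMI of each gene after thinning to 3000 UMIs per cell; bars are pools (y, young; o, old; A and B, platform), whiskers are exact 95% binomial intervals, and each panel has its own axis from 0. Sult1a1 stands at 7.82% and 9.98% in young and 44.2% and 50.5% in old pools, and Mgst1 at 14.99% and 14.9% against 4.85% and 4.46%.

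Cells with none of the 7 transcripts at this depth were 34.8% (A) and 27.8% (B) of the young cells and 14.3% (A) and 11.7% (B) of the old cells. Cells with 3 or more members were uncommon in young pools, where 3 members were seen in 4.39% and 5.56% of cells. In old pools 3 members were seen in 14.7% and 18.2% of cells. No cell held all 7.

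Whether the members were found in the same cells was examined within stem cell-gated cells, as the ratio of cells with both transcripts to the number expected from the 2 shares. In the old pools Gstm1 and Gstm2 were seen together in 203 cells (198 expected) and 307 cells (303 expected), ratios of 1.02 and 1.01. Gstm2 and Sult1a1, the pair with the large age differences, had ratios of 1.03 and 0.967. Mgst1 and Sult1a1 were seen together in 31 cells (46.5 expected) and 48 cells (64.5 expected), ratios of 0.667 and 0.745 in the old pools. In young pools A and B the ratios were 0.94 and 0.908, where 43 and 19 cells held both. Other pairs lay on both sides of 1. Gstm2 and Mgst1 had ratios of 0.434, 0.932, 0.676 and 1.19 in young A, young B, old A and old B. These came from 1, 2, 9 and 24 cells. Gstm4 and Gstm7 had ratios of 2.03, 0.453, 1.19 and 1.43 in the same order, from 12, 1, 11 and 15 cells. Ratios of pairs with few shared cells are loose, and no test was made over cells.

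Cells were then sorted in silico by 3 or more UMIs over a list of 8 marker genes, into erythroid-, megakaryocyte-, neutrophil-, mast-, lymphoid- and mitotic-gated cells, and HSC-gated cells that passed no other gate. Summed counts per pool and class were fitted together with pool as a block, and each class was compared with HSC-gated cells. Age did not enter these contrasts. With the gates as first written, 20 of 42 member tests passed, against 21.1% of all gene tests in the 6 contrasts. The neutrophil gate then held 24.3% to 61.9% of cells. Prtn3, 1 of its 8 markers, was widespread, with a UMI in 72.6%, 81.0%, 90.7% and 96.4% of the HSC-gated cells of young A, young B, old A and old B. Without Prtn3 in the gate, a change made after seeing the data, it held 0.843% to 3.64% of cells and 25 of 42 tests passed, 18 of them under both gates. No member was called in neutrophil-gated cells under the gates as first written, so every neutrophil call below rests on the changed gate. Levels and values below are from the gates without Prtn3 unless stated. The HSC gate then took 36.6% and 35.4% of the young and 62.3% and 53.3% of the old cells.

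Most called differences were lower levels outside the HSC gate: 23 of the 25. The members were selected on age differences, and this gate held a larger share of the old than of the young cells. The direction of these calls is therefore not independent of how the members were selected. The shares of all 11019 genes called higher and lower were 19.7% and 22.1% in erythroid-, 13.9% and 15.4% in megakaryocyte-, 20.1% and 21.9% in neutrophil-, 4.11% and 1.29% in mast-, 2.88% and 2.42% in lymphoid- and 20.3% and 28.1% in mitotic-gated cells. Mast-gated cells reached 10 cells in the A pools only, and lymphoid-gated cells in 3 pools.

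Gstm5 was the exception among the mu-class genes, with its highest level in erythroid-gated cells in each pool. It stood there at 194.0, 219.4, 182.8 and 175.6 CPM in young A, young B, old A and old B, against 75.3, 82.6, 94.1 and 114.9 CPM in HSC-gated cells. The difference was 1.10 ± 0.10 (log2, SE; edgeR adjusted p = 5.56e-11), and it was positive in 4 of 4 pools, from 0.61 to 1.40. The gates as first written gave 1.36 ± 0.11 (adjusted p = 7.02e-12). The other 6 members passed in the lower direction in erythroid-gated cells. For Gstm1 (-1.11), Mgst1 (-1.16) and Sult1a1 (-0.96) the call held with any 1 pool left out. For Gstm2 (-0.50), Gstm4 (-0.48) and Gstm7 (-0.62) it was lost without old pool A, at -0.29, -0.23 and -0.42 (edgeR adjusted p of 0.362, 0.386 and 0.11). For Gstm2 and Gstm4 it was also lost without old pool B (-0.65 and -0.35, adjusted p of 0.055 and 0.162), and Gstm4 was at -0.84 without young pool A. Gstm2 was above 0 in young pool A (0.35), and DESeq2 did not call it (adjusted p = 0.0851). Gstm5 was lower in neutrophil-gated cells (-1.08, edgeR adjusted p = 1.06e-06), but at -0.09 (adjusted p = 0.926) under the gates as first written. In mitotic-gated cells Gstm5 was lower under either gate (-0.70, adjusted p = 2.95e-06).

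Sult1a1 was highest in HSC-gated cells in each of the 4 pools. Its level there was 50.8 and 63.3 CPM (young) and 296.5 and 407.4 CPM (old). Mitotic-gated cells of the same pools held 4.87, 5.45, 65.9 and 68.6 CPM, a difference of -2.81 ± 0.20 (edgeR adjusted p = 1.18e-14) that lay between -2.15 and -3.32 in the 4 pools. Neutrophil-gated cells were lower by -2.08, megakaryocyte-gated cells by -1.42 and erythroid-gated cells by -0.96, each past the threshold (adjusted p of 7.22e-09, 1.81e-07 and 3.96e-05). Under the gates as first written the neutrophil difference was -0.33 (adjusted p = 0.507) and no call, and the erythroid difference was -1.78. Differences in mast- and lymphoid-gated cells (-0.51 and -1.07) did not pass. Mitotic-gated cells had more UMIs, with medians of 9655 to 12451 against 5291 to 6292 in HSC-gated cells. At 3000 UMIs per cell Sult1a1 was seen in 12.5%, 15.1%, 50.5% and 59.7% of HSC-gated cells (young A, young B, old A, old B), and in 1.15%, 1.46%, 15.7% and 15.1% of mitotic-gated cells. Without thinning the shares were 19.96%, 23.0%, 67.3% and 80.4%, and 4.62%, 4.38%, 41.6% and 38.0%. No class was known to lack the transcript, so its level from free RNA was not measured. With counts from cells thinned to 3000 UMIs, under the gates as first written, the mitotic difference was -3.07.

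Gstm1 was lower than in HSC-gated cells in 5 of 6 classes, and least so in neutrophil-gated cells. The fitted difference was -1.69 in mitotic-, -1.11 in erythroid-, -1.08 in megakaryocyte-, -0.97 in lymphoid- and -0.80 in mast-gated cells, with edgeR adjusted p of 1.14e-13, 1.54e-08, 3.92e-08, 0.0104 and 0.0191. The mast call was lost without young pool A or old pool A (adjusted p of 0.232 and 0.22), and the lymphoid call without young pool B or old pool A (0.108 and 0.0631). Under the gates as first written the erythroid and mast differences were -1.67 and -1.21. Neutrophil-gated cells held 167.1, 428.6, 475.3 and 331.3 CPM in young A, young B, old A and old B, against 278.7, 339.2, 432.9 and 476.0 CPM in HSC-gated cells. That difference was -0.10 ± 0.13 (adjusted p = 0.594), and it was above 0 in 2 pools and below 0 in 2.

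Mgst1 was the only member called higher in neutrophil-gated than in HSC-gated cells (0.65 ± 0.24, edgeR adjusted p = 0.0264). The call rested on the old pools, where the difference was 1.58 and 2.71, while in young pools it was -0.08 and -0.34. Without old pool A it was 0.51 (adjusted p = 0.136) and without old pool B 0.26 (adjusted p = 0.264). Under the gates as first written it was 0.00084. Mgst1 was lower in erythroid- (-1.16, adjusted p = 0.00088) and mitotic-gated cells (-1.08, adjusted p = 0.000109).

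Gstm2, Gstm4 and Gstm7 had lower counts, and their classes were less sharply separated. Gstm2 was at -0.43 in megakaryocyte-gated cells (edgeR adjusted p = 0.0402), but above 0 in young pool A (0.60). DESeq2 did not call it (adjusted p = 0.168). The edgeR call was lost without young pool B, old pool A or old pool B (adjusted p of 0.0988, 0.311 and 0.191). Gstm2 in neutrophil-gated cells rested on 0, 2, 10 and 5 UMIs in the 4 pools, and stood at 17.4 and 12.005 CPM in the old pools against 52.9 and 71.3 CPM in HSC-gated cells (fitted difference -1.91, adjusted p = 4.16e-06). Under the gates as first written that difference was 0.0068 and no call. In mitotic-gated cells of old pools, in contrast to Sult1a1, Gstm2 stood at 43.1 and 61.8 CPM (-0.30, adjusted p = 0.0956). Gstm7 was lower in mitotic-gated cells (-1.31), a call that held with any 1 pool left out. In neutrophil-gated cells it was at -0.78 (adjusted p = 0.0103), but at -0.44 (adjusted p = 0.177) without old pool A and at -0.03 under the gates as first written. It had 1, 0 and 0 UMIs in lymphoid-gated cells of young A, young B and old A, at or under the floor of 3 counts, so that no fold is given. That contrast is still counted among the 25 calls (edgeR adjusted p = 0.0246), though DESeq2 did not call it (adjusted p = 0.0861). Gstm4 was at -0.56 in megakaryocyte-gated cells, a call lost without young pool B or old pool A (adjusted p of 0.0571 and 0.103). In mitotic-gated cells it was at -0.45, a call lost without old pool A or B (adjusted p of 0.0737 and 0.13) and under the gates as first written (0.189).

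**Figure D4:**
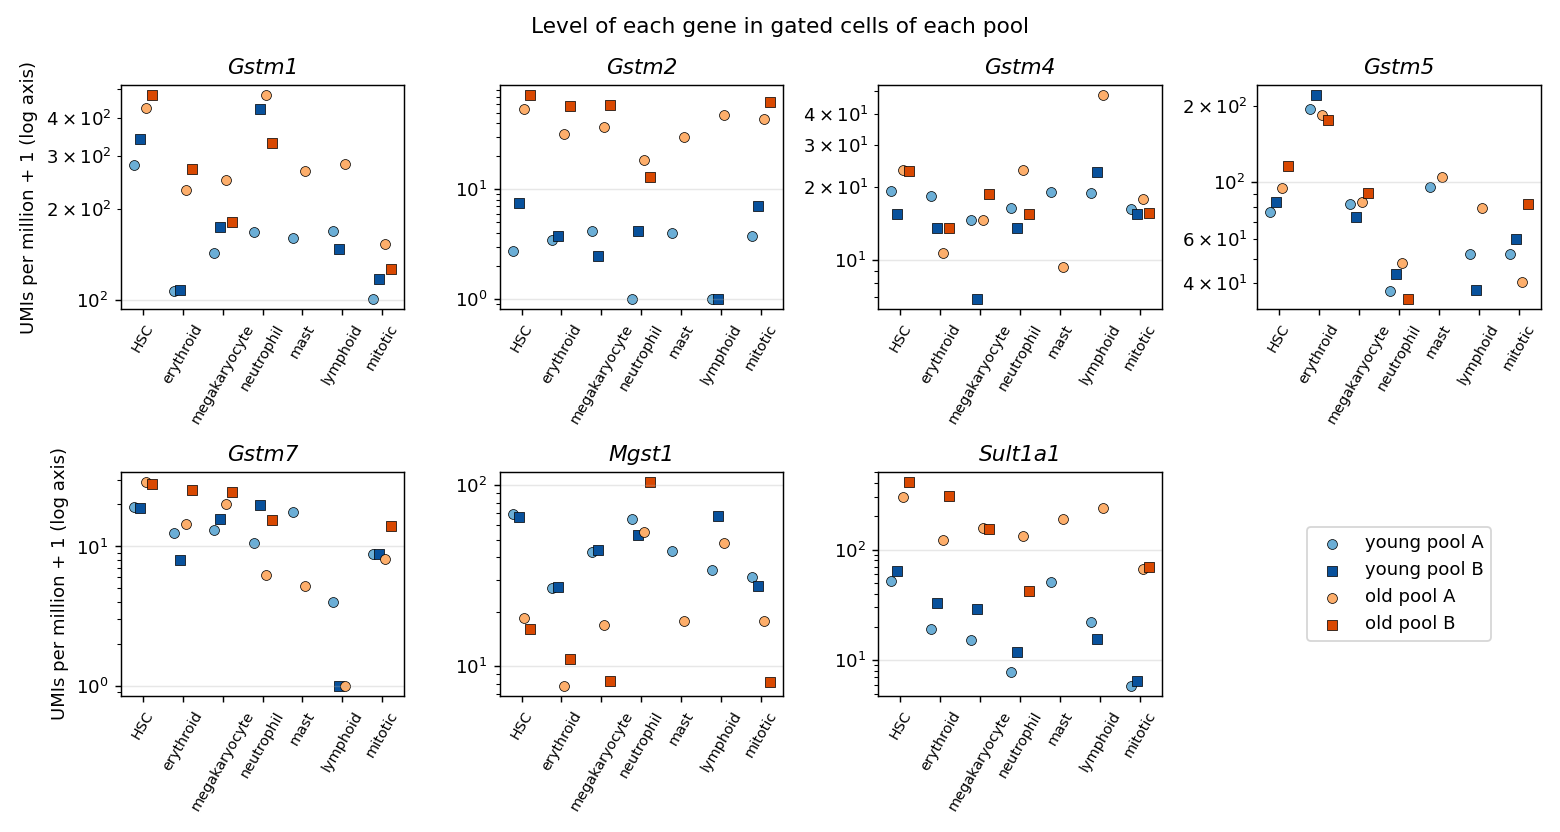
CPM plus 1 (log axis, own scale per panel) of each member in gated cells, 1 point per pool with at least 10 cells. Gstm5 peaks in erythroid-gated cells in each pool (175.6 to 219.4), Sult1a1 is highest in HSC-gated cells at both ages, and Mgst1 keeps a level of 54.0 and 103.2 in neutrophil-gated cells of old pools while it is 17.3 and 14.97 in HSC-gated cells.

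Age differences inside the gates are again a description. Sult1a1 was higher in old cells in each gate that could be compared, by 2.52 and 2.67 (log2, platforms A and B) in HSC-gated cells, 3.51 and 3.43 in mitotic-gated and 2.66 and 3.20 in erythroid-gated cells. Gstm2 was higher in HSC-gated cells by 4.30 and 3.27. Mgst1 was lower in HSC-gated cells, at 67.9 and 65.8 CPM (young) and 17.3 and 14.97 CPM (old). In neutrophil-gated cells Mgst1 stood at 64.2 and 51.8 (young) and 54.0 and 103.2 CPM (old; 113, 33, 31 and 43 UMIs), so that the ages overlapped. The age differences of these 3 genes were thus also seen within HSC-gated cells. A fixed cut need not take the same cells at both ages. The gate took 36.6% and 35.4% of young and 62.3% and 53.3% of old cells. Its markers summed to 692 to 756 CPM in young and 1037 to 1261 CPM in old pools. The part of cell composition in these differences was not tested.

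The genes most like a member across classes were found by correlation of log2(CPM + 1) over 25 points of class and pool, centered within each pool, among 5566 genes of at least 20 CPM. The points share pools and depth, and the values are descriptive. For Gstm5 the 5 genes were Mrpl52 (r = 0.93), Blvrb (0.91), Sdsl (0.90), Vamp5 (0.89) and Sirt2 (0.88), of which Blvrb is itself a marker in the erythroid gate. For Sult1a1 they were Rpl23 (0.93), Rpl13-ps3 (0.92), Ifitm1 (0.92), Rps14 (0.91) and BC026585 (0.90), 3 of them named as ribosomal protein genes or a pseudogene of one. For Gstm1 they were Ctsh (0.82), Lst1, Lbp, Rpl37 and Rpl35a (0.77), and for Mgst1 C1galt1c1 (0.84), Arhgdib, Ncf4, Svip and Emb (0.80).

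The remaining genes of the pathway, listed by function with no member among them, were tested with age. The lists were drawn up with earlier results of these data known, so the counts are no independent test. Of 96 genes, 81 could be tested, and 7 rose and 0 fell in old pools (edgeR adjusted p below 0.05; 20 at an unadjusted p below 0.05). Over all 13555 genes 1.6% rose and 0.428% fell, and 2175 had an unadjusted p below 0.05. At those shares lists of 8 to 19 genes would hold few calls or none, so a count of 0 or 1 in a list below is not a result about that list. Their median log2 difference was 0.19, beside 0.01 over all 13555 genes. The 7 were Gstm6, Gstt1, Hpgds, Gpx3, Gpx8, Aldh1a1 and Maff. With old pool A or old pool B left out, and with it the block, none of the list passed, and over all genes 4 and 0 passed.

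In the list of other glutathione transferases and related genes 3 of 19 rose. Gstm6, the mu-class neighbor of Gstm7, rose from 1.48 and 1.52 to 6.88 and 7.93 CPM (log2 difference 2.23 ± 0.25 SE, adjusted p = 0.0276). Of its 3′ words 11.8% occurred elsewhere, Gstm3 among the genes. Gstt1, of the theta class, rose from 16.1 and 21.3 to 40.1 and 61.2 CPM (1.37, adjusted p = 0.0366). Hpgds, which makes prostaglandin D2 and belongs to the sigma class, rose from 6.09 and 6.71 to 20.2 and 16.7 CPM (1.48, adjusted p = 0.0366). The most abundant gene of the list, Alox5ap, which hands arachidonic acid to 5-lipoxygenase, stood at 279.5 and 317.4 against 289.6 and 344.1 CPM (adjusted p = 0.962). Called and uncalled genes thus stood side by side in this list.

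Glutathione peroxidases and reducing enzymes gave 2 of 13. Gpx8, a peroxidase of the endoplasmic reticulum membrane, rose from 0.466 and 0.976 to 11.2 and 16.1 CPM (4.26 ± 0.25, adjusted p = 0.00825). Gpx3, a secreted peroxidase, rose from 1.02 and 0.915 to 11.1 and 8.62 CPM (3.29 ± 0.24, adjusted p = 0.0132). Gpx1, the abundant cytosolic form, stood at 807.0 and 1080.3 against 765.7 and 809.8 CPM (adjusted p = 0.632). Both called peroxidases were near the floor of detection in young pools.

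The lists that supply the conjugation reactions gave no call. For glutathione synthesis 0 of 11 passed by edgeR (2 at an unadjusted p below 0.05), with the transporter chain Slc3a2 at 147.6 and 123.2 against 133.1 and 157.4 CPM (adjusted p = 0.95). For other sulfotransferases and the enzymes and carriers of their sulfate donor 0 of 8 passed (1 unadjusted), with the PAPS carrier Slc35b2 at 46.4 and 42.4 against 45.1 and 45.5 CPM (adjusted p = 0.973).

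Of other conjugating enzymes and exporters 1 of 18 rose. It was Aldh1a1, which oxidizes retinaldehyde, from 19.0 and 19.8 to 124.3 and 157.8 CPM (2.80 ± 0.20, adjusted p = 0.0124), while the mitochondrial Aldh2 stood at 520.3 and 522.9 against 518.9 and 559.7 CPM (adjusted p = 0.996). Of 12 regulators 1 rose, the small Maf gene Maff (1.57, adjusted p = 0.0499). Its level differed more between platforms than with age, at 10.1 and 0.732 CPM in young and 28.7 and 2.76 CPM in old pools A and B. Nfe2l2, which encodes NRF2, stood at 70.9 and 69.9 against 94.95 and 87.5 CPM (0.32, adjusted p = 0.427).

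**Figure D5:**
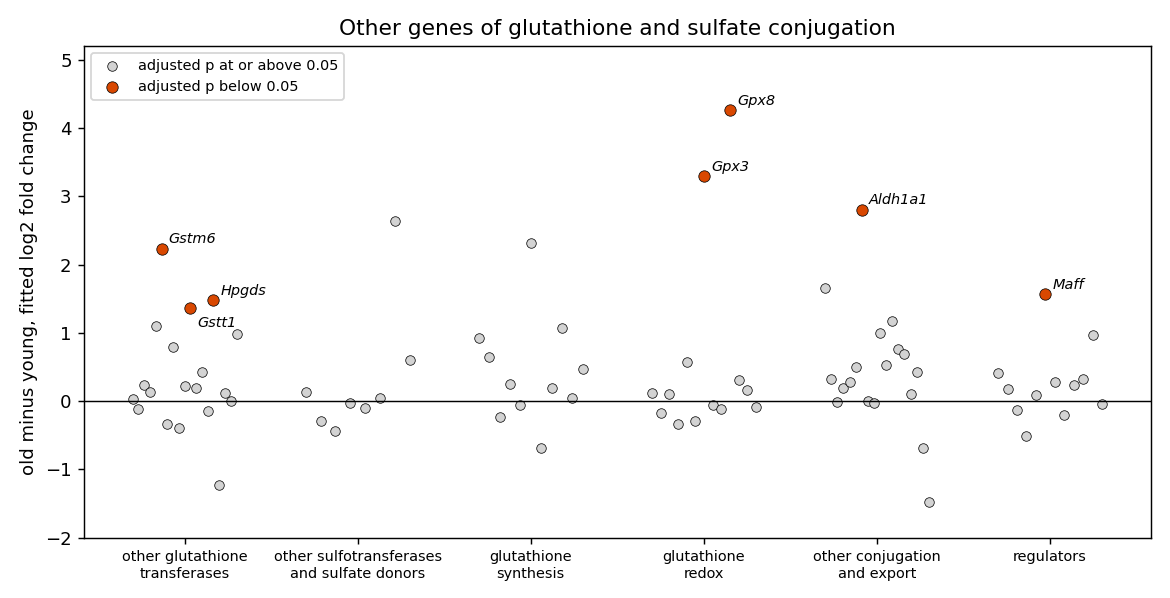
Fitted log2 difference, old minus young, of each tested gene of 6 pathway lists (1 point per gene, members left out); orange points passed an adjusted p of 0.05. The 7 that passed all lie above 0, led by Gpx8 (4.26) and Gpx3 (3.29). The medians of the lists run from 0.01 (other sulfotransferases and sulfate donors) to 0.37 (other conjugation and export).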

How the data were processed

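Raw UMI counts per gene and cell barcode were deposited by the authors for 4 pools, made per the labels with Cell Ranger 2.2.0 on GRCm38 (mm10). No source used here gives the annotation release. Age was taken from titles and source names, because for young B and old A the free-text description gives the opposite age. The members, gene lists and tests were chosen with earlier results of these data known.

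As in the study, barcodes more than 2 SD from their pool's mean log UMI count were dropped (651 in all). No doublet caller was run, and cells in 2 or more lineage gates were left out. For shares and gates each cell was thinned to 3000 UMIs, which left out 230 shallower cells. A gate took at least 3 UMIs over 8 markers, and a class at least 10 cells per pool.

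Counts summed per pool, or per pool and class, were tested with edgeR 4.0.16 in R 4.3.3 (TMM, filterByExpr, quasi-likelihood, Benjamini-Hochberg at 0.05 over all genes), and DESeq2 1.42.0 was an alternative. The platform letter was the replicate block with age: the labels tie it to the facility, and same-platform deviations from the age means had a correlation of 0.576 over 13555 genes. With classes, the pool was the block. In simulated data with the age design, edgeR found 75 of 100 changes of 2-fold and 99 of 100 of 4-fold. It made 11 false calls among 13589 genes. DESeq2 found 46 and 94, with 2 false calls. The simulation gave all genes the same spread, held no platform effect and changed no gene of low count. Its rates therefore do not carry over to these data.

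Named genes were the members, each pathway gene past the threshold with age, the gene of highest mean level in each list, and the 5 genes most like Gstm1, Gstm5, Mgst1 and Sult1a1. Neighbors were taken within 60 kb. Promoter sequences are from RefSeq, and 28339 of 28692 gene IDs were found in GENCODE M21. Protein sequences were not used here.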

Additional observations from a re-analysis of the deposited data

Results flagged for a closer look

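Gstm5 and Gstm7 each had a class of cells in which both platforms moved against HSC-gated cells with age. The differences between the classes were not tested. Gstm5 in erythroid-gated cells was lower in old than in young cells on both platforms, by a mean log2 difference of -0.20 (-0.09 and -0.32, from 471, 158, 189 and 195 UMIs in young A, young B, old A and old B), while in HSC-gated cells it was higher by 0.32 and 0.47. Gstm7 in neutrophil-gated cells had a mean difference of -0.57 (-0.78 and -0.36), but from 17, 12, 3 and 6 UMIs, while in HSC-gated cells it was higher by 0.61 and 0.57.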

How the results depend on the processing

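The count of genes called with age was 275. It was 0 with no replicate block (1103 at an unadjusted p below 0.05), 543 with DESeq2, 774 with no filter on low counts, and 102 in HSC-gated cells by the gates as first written but 293 by those without Prtn3. It was 0 to 287 with both 1 pool and the block left out (160 without young B, 4 without old A, 0 without old B; a lone pool was assumed to vary like the others). The pathway count of 7 became 0 with no replicate block (15 unadjusted), 12 with no filter, 3 in HSC-gated cells as first written (5 without Prtn3), and 0 to 5 with 1 pool and the block left out. The causes were not tested. Of the members, 3 passed with age in each setting except no block (0), without young B (2) and without old A or B (0 each). Their age differences kept their sign in every setting, and Gstm5 came down to 0.01 without old B. Under the gates as first written member calls between classes numbered 20, and 9 with no replicate block. Without Prtn3 they numbered 25. The difference of Gstm2 in neutrophil-gated cells was 0.0068 under the gates as first written and -1.91 without Prtn3 in the gate; over all alternatives of the class differences 1 value was reversed, 10 gained and 43 lost the call. With 2 pools per age, the SE of the fitted age differences ran from 0.16 (Mgst1) to 0.21 (Gstm4). Of the other members, Gstm7, of under 25 CPM, had 0.17 and Gstm1, the most abundant, 0.20.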
